A study of Mus musculus with 6 samples.

Results

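The members of the Schlafen (*Slfn*) family examined here were 7 protein-coding genes, *Slfn1*, *Slfn2*, *Slfn3*, *Slfn4*, *Slfn5*, *Slfn8*, and *Slfn9*, of the 54232 genes in the deposited files. They were chosen with earlier results of these data known. *Slfn14*, another protein-coding Schlafen gene, had 0 counts in all 6 libraries and was not among them. RNA-seq had been performed on inflammatory monocytes sorted from the CNS of mice with EAE, a model of multiple sclerosis induced by immunization with a myelin antigen. The mice were mixed BM chimeras, in which irradiated GFP+ recipients had been given equal parts of WT (CD45.1) and Ifnar1-/- (CD45.2) marrow. *Ifnar1* encodes a chain of the receptor through which type I IFNs signal, so the comparison asked how the transcriptome of monocytes differed with and without this receptor under treatment with rIFN-β. There were 3 WT libraries and 3 Ifnar1-/- libraries, and all 6 came from chimeras that had received 30000 IU of rIFN-β daily. No library came from untreated mice, and the 2 genotypes also differed in donor strain marker (CD45.1 or CD45.2), so effects of the receptor and of donor background cannot be told apart. The labels did not state whether libraries were separate mice or whether same-numbered libraries shared a mouse. Each recipient carried marrow of both genotypes, and there were as many recipients as libraries per genotype, so the groups may share mice and need not be independent. The p-values therefore measure only the spread between these libraries. Ages were not given.

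Schlafen genes were first described in developing thymocytes and are known as genes that type I IFNs induce in many immune cells. Their proteins share an AlbA-like domain with which several of them bind RNA, and some cut or protect tRNA. They are grouped by length into short proteins (*Slfn1* and *Slfn2*), intermediate proteins (*Slfn3* and *Slfn4*), and long proteins that add a helicase-like domain (*Slfn5*, *Slfn8*, and *Slfn9*). In myeloid cells, *Slfn2* is known for holding cells in quiescence and *Slfn4* as a gene that inflammatory macrophages and suppressive myeloid cells express.

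Schlafen transcripts were more abundant in WT than in Ifnar1-/- monocytes, and the size of the difference varied widely between members. *Slfn4* was 16.2-fold and *Slfn5* 10.0-fold higher in WT, *Slfn9* was 3.91-fold and *Slfn8* 3.10-fold higher, and *Slfn1* was 1.82-fold higher. *Slfn2* (1.19-fold) and *Slfn3* (1.71-fold) did not pass the test. Thus 5 of 7 members were called higher in WT, where a call is an edgeR adjusted p of at most 0.05 with a fold change of at least 1.5. All 7 members passed the filter on low counts. Over all 11254 genes tested, 2.13% were called in either direction 1.67% were called higher, and 0.462% were called lower in WT. The median log2 fold change was 1.63 over the 7 members and -0.01 over all tested genes.

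All members lie in a single cluster on chromosome 11 of the mouse genome (GRCm38), from 82951349 to 83215154. *Slfn5*, *Slfn2*, *Slfn1*, *Slfn4*, and *Slfn3* are on the plus strand, and *Slfn9* and *Slfn8* are on the minus strand between *Slfn5* and *Slfn2*. The stretches just before the start sites of the genes are shown because members of the same cluster differed in response, and they are letters of the RefSeq reference (GRCm38.p6), written 5′ to 3′ on the strand of the gene. The ISRE core is an element known from promoters of IFN-stimulated genes. The 250 bases before each gene's most upstream RefSeq start site were searched for it on both strands. It was written as GAAA, any 2 bases, and GAAA again. It was found in 3 of 7 members, *Slfn5*, *Slfn8*, and *Slfn9*, and is in capitals in their sequences:
Slfn5, chr11:82951852-82951984, plus strand, bases -250 to -118 from the start site: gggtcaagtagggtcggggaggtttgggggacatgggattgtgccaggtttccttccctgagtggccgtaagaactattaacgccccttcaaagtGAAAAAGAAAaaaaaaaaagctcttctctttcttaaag
Slfn8, chr11:83020811-83020910, minus strand, bases -100 to -1: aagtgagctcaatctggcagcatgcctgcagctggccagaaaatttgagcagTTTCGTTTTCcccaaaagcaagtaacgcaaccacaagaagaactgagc
Slfn9, chr11:82991831-82991930, minus strand, bases -100 to -1: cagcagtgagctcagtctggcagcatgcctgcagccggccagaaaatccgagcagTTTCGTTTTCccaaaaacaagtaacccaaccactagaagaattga
The matches lay at bases -155 to -146 in *Slfn5*, -48 to -39 in *Slfn8*, and -45 to -36 in *Slfn9*. The stretch shown for *Slfn5* lies upstream of the main transcript and in an intron of a short transcript annotated by GENCODE, and it ends before the next exon of that transcript. In *Slfn8* and *Slfn9* the matched letters were the same, TTTCGTTTTC, which is the core read from the opposite strand. Of all 32851 promoter windows of this length, 2.98% held the core.

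The windows of *Slfn4*, *Slfn1*, *Slfn2*, and *Slfn3* held no ISRE core, which says only that these letters are not in this window. They shared a stretch of 9 bases, ACTTCCTGG, the longest run common to all 4 windows, which was chosen after the windows were compared and is in capitals in their sequences:
Slfn4, chr11:83174936-83175185, plus strand, bases -250 to -1: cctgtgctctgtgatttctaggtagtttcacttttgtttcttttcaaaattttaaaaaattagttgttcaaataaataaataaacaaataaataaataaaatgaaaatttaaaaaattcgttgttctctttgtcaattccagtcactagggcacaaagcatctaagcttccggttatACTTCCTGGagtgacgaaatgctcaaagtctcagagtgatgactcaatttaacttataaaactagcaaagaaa
Slfn1, chr11:83116720-83116819, plus strand, bases -100 to -1: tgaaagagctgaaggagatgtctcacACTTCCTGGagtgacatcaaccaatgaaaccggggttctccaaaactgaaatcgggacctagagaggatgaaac
Slfn2, chr11:83065012-83065111, plus strand, bases -100 to -1: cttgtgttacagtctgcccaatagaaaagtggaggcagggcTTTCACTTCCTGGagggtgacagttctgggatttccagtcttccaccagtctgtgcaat
Slfn3, chr11:83191230-83191329, plus strand, bases -100 to -1: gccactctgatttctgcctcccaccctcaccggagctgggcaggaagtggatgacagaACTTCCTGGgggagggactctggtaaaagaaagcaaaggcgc
The shared stretch began at base -73 in *Slfn4*, -74 in *Slfn1*, -55 in *Slfn2*, and -42 in *Slfn3*, and 230 of the 32851 windows held it. In *Slfn1* and *Slfn4* it ran on to 15 shared bases, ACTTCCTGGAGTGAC. In *Slfn2* the capitals also cover the ETS-IRF composite element (GGAA, any 2 bases, and GAAA, here on the opposite strand at bases -59 to -50 and overlapping the shared stretch), which 2.30% of all windows held and no other member did. The GAS element (TTCNNNGAA), known from promoters that answer to IFN-γ, was in none of the members' windows and in 7.02% of all windows. Members whose windows held the ISRE core had log2 fold changes of 3.32 (*Slfn5*), 1.97 (*Slfn9*), and 1.63 (*Slfn8*). Those without it had 4.02 (*Slfn4*), 0.87 (*Slfn1*), 0.78 (*Slfn3*), and 0.25 (*Slfn2*). The shared stretch was thus present in the members with the largest and the smallest fold change. Whether these letters bear on the size of the genotype difference was not tested.

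The libraries held between 4531782 and 7321380 expected counts, and the floor for detection, set at 3 counts, was 0.410 to 0.662 CPM (counts scaled to library size) and covers counting error only. Mitochondrial rRNA took 12.3% to 17.6% of counts in WT and 15.1% to 22.7% in Ifnar1-/- libraries. Transcripts of *Ifnar1* were at 153, 126, and 111 normalized CPM in WT and at 110, 102, and 109 in Ifnar1-/- libraries (edgeR adjusted p = 0.360). The gene-level count of *Ifnar1* therefore did not separate the genotypes, and it checks no label, since the part of the gene that was disrupted is not given in the labels. Summed normalized CPM of 8 monocyte markers were 8413 to 10221 in WT and 8870 to 10198 in Ifnar1-/- libraries. *Ly6c2*, a member of that list and of the Ly6C antigen used in the sort, was higher in WT at 718 than in Ifnar1-/- at 271 normalized CPM (edgeR adjusted p = 0.00957). *Ccr2*, the chemokine receptor with which monocytes leave the marrow, lay in the other direction without overlap, at 587 to 694 in WT and 794 to 1269 normalized CPM in Ifnar1-/- libraries, and was not called (log2 fold change -0.62, edgeR adjusted p = 0.143). Of the 8 monocyte markers, 1 was called by edgeR and 3 by DESeq2, and 3 had an unadjusted p under 0.05. Summed markers of T cells were 97.6 to 132 in WT and 48.5 to 57.4 in Ifnar1-/- libraries, higher in every WT library, and of the 10 genes in this list *Il7r* gave most of the sum. Of 8 T cell markers tested, 0 were called by edgeR and 1 by DESeq2, and 7 had an unadjusted p under 0.05. B cell markers summed to at most 1.71 normalized CPM in any library, with *Pax5* at 0 in all. Neutrophil markers overlapped between genotypes (297 to 1894 in WT and 780 to 2229 in Ifnar1-/- libraries). Summed markers of microglia were lower in every WT library (29.2 to 31.9 in WT and 34.1 to 37.6 in Ifnar1-/- libraries). NK cell markers were low and overlapped (2.76 to 9.08 in WT and 1.02 to 3.05 in Ifnar1-/- libraries). Those of plasmacytoid dendritic cells did so too (2.99 to 5.33 in WT and 1.53 to 3.21 in Ifnar1-/- libraries).

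Among the intermediate members, *Slfn4* differed most. It was at 649, 390, and 379 normalized CPM in the WT monocytes (libraries 1, 2, and 3, in this order throughout) and at 35.0, 21.2, and 31.3 in Ifnar1-/- monocytes. Every WT library was more than 10 times above every Ifnar1-/- library, and WT library 1 was the highest. The log2 fold change was 4.02 (SE 0.28, 95% interval 3.41 to 4.63, edgeR adjusted p = 2.25e-05), the 24th largest rise among the 11254 genes tested. In bulk RNA of this kind, fewer cells with a transcript and less transcript per cell cannot be told apart. *Slfn4* was present in Ifnar1-/- monocytes well above the detection floor, with 125 to 229 expected counts per library.

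*Slfn3*, the other intermediate member and the neighbor of *Slfn4* on the plus strand, was expressed at a low level. It was at 8.82, 15.5, and 12.2 normalized CPM in WT and at 5.65, 7.63, and 7.91 in Ifnar1-/- libraries. The lowest WT library was above the highest Ifnar1-/- library by less than 1 CPM. On the TPM scale the genotypes overlapped through WT library 1 alone (3.59 TPM, with Ifnar1-/- library 2 at 4.54). The TPM of that WT library was scaled down relative to the others, as described below. The log2 fold change of 0.78 (SE 0.26, 95% interval 0.19 to 1.36) was not called (edgeR adjusted p = 0.164). Of the 75-base stretches of *Slfn3* transcripts, 6.78% also occurred in transcripts of another gene, mostly the neighboring *Gm11427* and *Slfn4*, so a part of its counts could have been apportioned between genes. With *Slfn3* and *Slfn4* counted as a single gene, the log2 fold change was 3.74 (edgeR adjusted p = 1.77e-05), below that of *Slfn4* alone.

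Of the long members, *Slfn5* had the largest difference. *Slfn5*, which encodes a nuclear protein, was at 909, 451, and 506 normalized CPM in WT and at 57.6, 69.1, and 59.8 in Ifnar1-/- libraries. The genotypes were far apart, and WT library 1 was again the highest while the Ifnar1-/- libraries lay close together. The log2 fold change was 3.32 (SE 0.27, 95% interval 2.73 to 3.92, edgeR adjusted p = 8.76e-05), the 35th largest of the genes tested. *Slfn5os*, an antisense gene that overlaps *Slfn5*, had at most 2 counts in any library, and whether strand was used in counting is not given in the sources used here.

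*Slfn8* and *Slfn9*, which lie side by side on the minus strand, showed smaller differences. *Slfn8*, a long member known in lymphoid and myeloid cells, was at 170, 128, and 105 normalized CPM in WT and at 40.6, 53.4, and 36.0 in Ifnar1-/- libraries. The lowest WT value was nearly 2 times the highest Ifnar1-/- value. Its log2 fold change was 1.63 (SE 0.21, 95% interval 1.17 to 2.10, edgeR adjusted p = 0.00199). *Slfn9* was at 67.4, 24.0, and 28.2 normalized CPM in WT and at 11.9, 9.66, and 9.19 in Ifnar1-/- libraries. WT library 1 stood well above the other WT libraries, so that WT spread widely (39.9 ± 24.0 normalized CPM, SD, n = 3), yet the genotypes did not overlap.

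The log2 fold change of *Slfn9* was 1.97 (SE 0.36, 95% interval 1.16 to 2.77, edgeR adjusted p = 0.0189), and its size and call depended on single libraries. Without WT library 1 it was 1.35 and still called (edgeR adjusted p = 0.00796). Without Ifnar1-/- library 1, 2, or 3 the log2 fold changes were 2.11, 1.94, and 1.92, and the call was lost each time (edgeR adjusted p = 0.0903, 0.0830, and 0.0839). The longest unbroken run that the promoter windows of *Slfn8* and *Slfn9* shared was 20 bases, TCTGGCAGCATGCCTGCAGC, and the windows also shared shorter runs. Of the 75-base transcript stretches of *Slfn8* and *Slfn9*, 6.99% and 5.90% occurred in other genes, mostly each other and the pseudogene *Slfn10-ps*. Summing the 3 genes gave a log2 fold change of 1.59 (edgeR adjusted p = 0.00496).

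The short members had the highest TPM in both genotypes, and *Slfn2* had the smallest difference of all members. *Slfn1*, which slows the growth of thymocytes when expressed, was at 526, 528, and 378 normalized CPM in WT and at 270, 304, and 212 in Ifnar1-/- libraries. All WT libraries were above all Ifnar1-/- libraries, with WT library 3 the nearest to them. The log2 fold change was 0.87 (SE 0.19, 95% interval 0.44 to 1.29), just inside the threshold (edgeR adjusted p = 0.0481). The call was lost without WT library 1 or 2 or without any single Ifnar1-/- library, where log2 fold changes of 0.75 to 1.00 had edgeR adjusted p from 0.0688 to 0.195.

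*Slfn2*, which in T cells and monocytes is required for quiescence and which protects tRNA from cleavage, was at 895, 1007, and 792 normalized CPM in WT and at 812, 706, and 748 in Ifnar1-/- libraries. The genotypes overlapped, since WT library 3 was below Ifnar1-/- library 1. The log2 fold change was 0.25 (SE 0.16, edgeR adjusted p = 0.448), with a 95% interval from -0.10 to 0.60 that does not reach a doubling. The T cell markers that were higher in every WT library lay in the same direction as the differences of the members, and T cells are also known to express short members. Their part in these values was not tested.

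**Figure D1:**
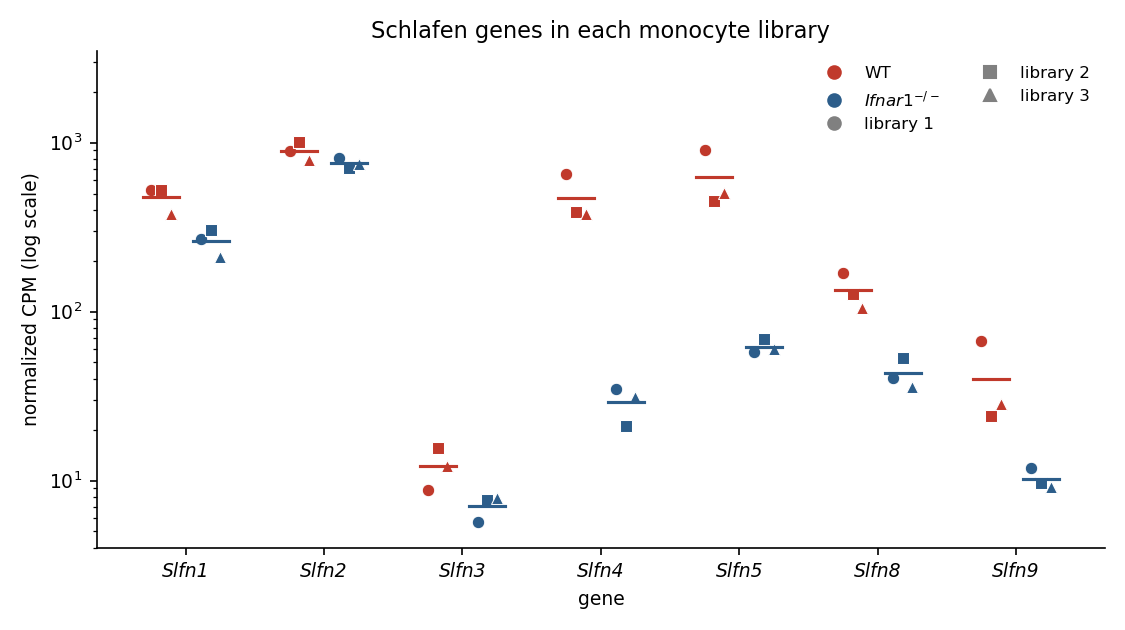
Normalized CPM (log scale) of the 7 Schlafen genes, with 1 point per library colored by genotype and shaped by library number. *Slfn4* and *Slfn5* show the widest gap between WT and Ifnar1-/- libraries, and *Slfn2* is the only member whose genotypes overlap.

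In the plot of the members by library, 6 of 7 members had every WT library above every Ifnar1-/- library, which was so for 11.1% of all genes tested (23.4% did not overlap in either direction). The two-sided exact permutation p was 0.1 for each of these 6 members, the smallest that 3 libraries against 3 can give, and 0.2 for *Slfn2*. Summed normalized CPM of the 7 members were 3226, 2543, and 2202 in WT and 1233, 1171, and 1104 in Ifnar1-/- libraries. The family sum was thus higher in every WT library, and WT library 1, in which *Slfn4*, *Slfn5*, *Slfn8*, and *Slfn9* were each highest, had the highest sum. Counted as a single gene together with *Slfn10-ps*, the family had a log2 fold change of 1.18 (SE 0.19, edgeR adjusted p = 0.00888).

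Other Schlafen genes were low or not detected. The pseudogene *Slfn10-ps* was at 38.4, 21.7, and 17.0 normalized CPM in WT and at 14.7, 14.9, and 9.56 in Ifnar1-/- libraries, with a log2 fold change of 0.99 that was not called (edgeR adjusted p = 0.133). Of its 75-base transcript stretches, 11.5% occurred in other genes, so a part of its counts could belong to *Slfn8* and *Slfn9*. *Slfn14*, a long member known for cutting ribosomal RNA and for its part in platelet formation, had 0 counts in all 6 libraries, which allows up to 0.410 to 0.662 CPM per library. The related *Slfnl1*, which lies outside the cluster, had at most 1 count in any library.

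Levels of different genes can be compared only per transcript length, and TPM, an estimate of transcript abundance corrected for length, was used for this within each library. In WT monocytes the order of TPM was *Slfn2*, *Slfn1*, *Slfn5*, *Slfn4*, *Slfn8*, *Slfn9*, and *Slfn3*, at means of 564, 260, 161, 113, 41.0, 8.01, and 6.80 TPM. Each member was above the next in all 3 WT libraries and without overlap, except *Slfn9* and *Slfn3*, whose TPM ranges overlapped. In Ifnar1-/- monocytes *Slfn2* and *Slfn1* were again highest, at means of 465 and 144 TPM. They were followed by *Slfn5* at 17.0 and *Slfn8* at 13.7 TPM, whose ranges overlapped, then by *Slfn4* at 7.23, *Slfn3* at 3.85, and *Slfn9* at 2.24 TPM. *Slfn4* thus stood above *Slfn8* in TPM in all WT libraries and below it in all Ifnar1-/- libraries. TPM of WT library 1 was scaled down relative to the others, since the short RNA *Rn7s2* took 27.8% of its TPM and at most 11.2% in any other library, so levels were compared within libraries.

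The composition of the family differed between genotypes accordingly. *Slfn2* made up 42.7%, 52.3%, and 50.2% of the summed TPM of the 7 members in WT and 72.5%, 67.3%, and 74.7% in Ifnar1-/- libraries. Its share was lower in every WT library, by 23.1 percentage points on average (48.4% ± 5.02 against 71.5% ± 3.82, SD, n = 3 each, two-sided exact permutation p = 0.1). *Slfn5* made up 17.5%, 10.95%, and 14.4% of summed TPM in WT and 2.20%, 2.94%, and 2.63% in Ifnar1-/- libraries. *Slfn4* made up 12.4%, 8.08%, and 9.58% in WT and 1.29%, 0.815%, and 1.26% in Ifnar1-/- libraries. Both shares were several times larger in WT without overlap. The share of *Slfn1* overlapped between genotypes, at 22.4% ± 1.54 in WT and 21.8% ± 3.47 in Ifnar1-/- libraries (SD, n = 3 each, two-sided exact permutation p = 0.9), and as a share of expected counts, which is not per length, its difference was in the opposite direction (-4.26 percentage points). Shares sum to 100% in each library, so a larger share of one member lowers those of the others.

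**Figure D2:**
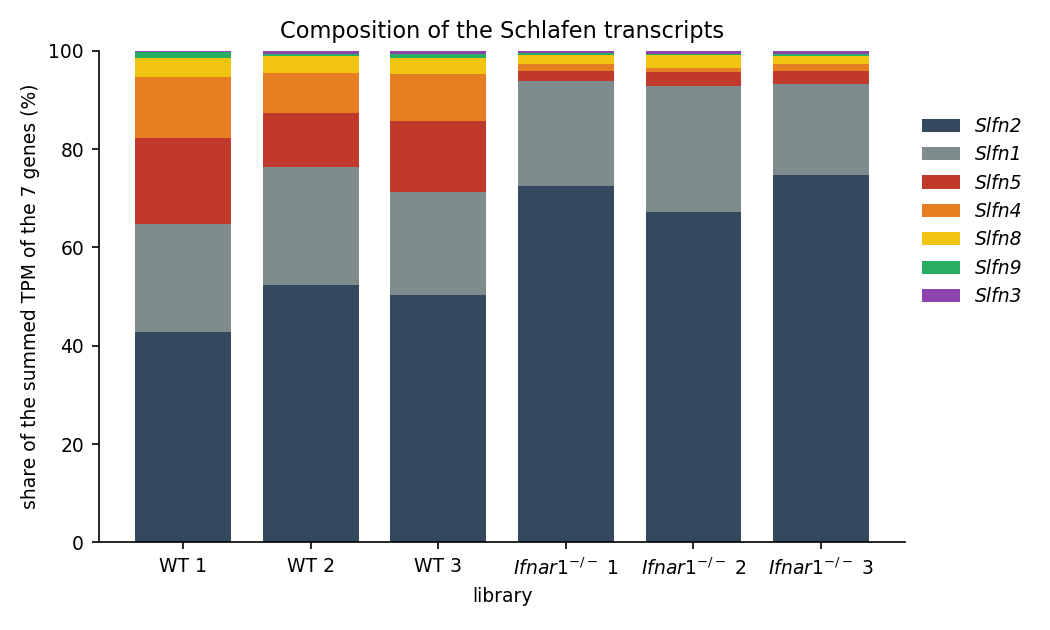
Share of each Schlafen gene in the summed TPM of the 7 genes (%), as a stacked bar for each of the 3 WT and 3 Ifnar1-/- libraries. *Slfn2* takes 42.7% to 52.3% of the bar in WT and 67.3% to 74.7% in Ifnar1-/- libraries, and *Slfn4* and *Slfn5* are thin bands in Ifnar1-/- libraries.

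To ask which members differed from each other in response, the log2 ratio of TPM + 0.5 was taken for each of 21 pairs in each library. The genotypes did not overlap for 16 pairs, each with a two-sided exact permutation p of 0.1 (0.131 adjusted over the pairs), the smallest possible with 3 libraries against 3, so the ratios are read by size and overlap alone. The log2 ratio of *Slfn2* over *Slfn4* was 1.79, 2.69, and 2.39 in WT and 5.73, 6.25, and 5.80 in Ifnar1-/- libraries. *Slfn2* exceeded *Slfn4* in both genotypes, and the mean of this log2 ratio was lower in WT by 3.64, the widest difference of any pair. The log2 ratio of *Slfn4* over *Slfn5* was -0.51 ± 0.07 in WT and -1.17 ± 0.53 in Ifnar1-/- libraries (SD, n = 3 each). These 2 members, one with and one without an ISRE core in its window, thus differed in log2 ratio by 0.67, less than most pairs. The log2 ratio of *Slfn8* over *Slfn9* was 2.32 ± 0.58 in WT and 2.34 ± 0.34 in Ifnar1-/- libraries (SD, n = 3 each, two-sided exact permutation p = 0.9). The other overlapping pairs were *Slfn1* over *Slfn3*, *Slfn1* over *Slfn9*, *Slfn2* over *Slfn3*, and *Slfn3* over *Slfn9*, all of which involve a member of low abundance.

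Genes beside the cluster were compared to see whether they moved with it. Of 57 other annotated genes within 500 kb of the members, 17 were tested and 0 were called by edgeR, DESeq2, or limma-voom, with 4 at an unadjusted p under 0.05. Over all genes tested, edgeR called 2.13% in either direction, so 0 of 17 is near that share. The median log2 fold change of the neighbors was -0.13, with a range from -0.72 for *Gm23444* to 0.79 for *Ccl4*. The lowest edgeR adjusted p were those of *Wfdc17* (log2 fold change -0.56, adjusted p = 0.0863) and *AI662270* (-0.55, adjusted p = 0.106). Both were lower in every WT library. The chemokine genes *Ccl3*, *Ccl4*, *Ccl5*, *Ccl6*, and *Ccl9* lie in this flank and none was called. *Ccl6*, the most abundant of them, was at 917 normalized CPM in WT and 996 in Ifnar1-/- libraries. When no filter on low counts was used, *Ccl3*, *Ccl4*, and *Gm23444* passed the thresholds, in a fit that called 872 genes instead of 240.

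**Figure D3:**
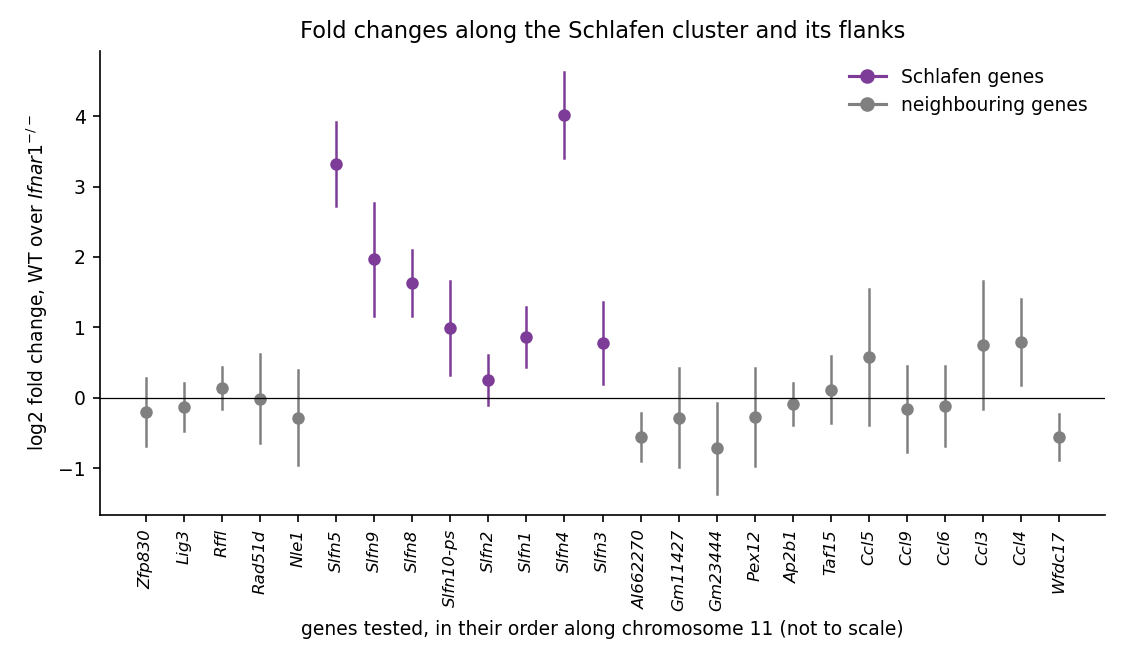
Log2 fold change (WT over Ifnar1-/-) with 95% interval of the tested Schlafen genes and tested neighbors within 500 kb, in their order along chromosome 11. The neighbors lie between -0.72 and 0.79, and *Slfn5*, *Slfn9*, *Slfn8*, the pseudogene *Slfn10-ps* (0.99), *Slfn1*, and *Slfn4* lie above 0.79.

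The members were placed among other genes of the IFN pathway, from lists drawn up from general knowledge. Earlier results of these data were known when the lists were chosen, so their counts of called genes are a description. Of 6 genes of the receptor and the signaling below it (*Ifnar1*, *Ifnar2*, *Jak1*, *Tyk2*, *Stat2*, and *Irf9*), 1 was called. *Stat2*, a transcription factor of this pathway, was at 189, 123, and 139 normalized CPM in WT and at 30.8, 44.1, and 35.3 in Ifnar1-/- libraries. It was higher in every WT library (log2 fold change 2.04, SE 0.20, edgeR adjusted p = 0.000347). *Irf9*, which binds DNA, had a log2 fold change of 0.50 and was not called (edgeR adjusted p = 0.0842).

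Of 35 IFN-stimulated genes with no Schlafen gene among them, 34 were called higher in WT and 0 lower, and the log2 fold changes ran from 0.63 to 5.22 around a median of 3.17. The largest were *Ifit3*, which binds viral RNA in a complex with other IFIT proteins, at a log2 fold change of 5.22, *Oasl1* at 5.11, and *Ifi27l2a* at 5.06. The smallest of those called were *Ifi204*, a DNA sensor, at 0.97, *Dtx3l* at 1.00, and *Ifi35* at 1.04, and the gene not called was *Parp9* at 0.63 (edgeR adjusted p = 0.0666). In this order *Slfn4* (4.02) fell between *Irf7* (4.08), the transcription factor that amplifies IFN responses, and *Rtp4* (3.92), and *Slfn5* (3.32) fell between *Isg15* (3.56) and *Oasl2* (3.17). *Slfn8* (1.63) was next to *Ifih1* (1.64) and *Herc6* (1.62), and *Slfn1* (0.87) was below every called gene of the list. The upper members thus fell within the range of these antiviral genes, and *Slfn1*, *Slfn3* (0.78), and *Slfn2* fell below its called part. *Dtx3l* lost its call without any WT library or without Ifnar1-/- library 1 or 3 (log2 fold changes of 0.85 to 1.09), and *Ifi204* without Ifnar1-/- library 1 (1.00) or 3 (0.92). Of the 35 genes, 24 had a RefSeq promoter window, and 10 of these held the ISRE core in any of their windows. Of the 7 members, 3 held it, with only the most upstream window of each searched, so the 2 counts are not made alike.

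**Figure D4:**
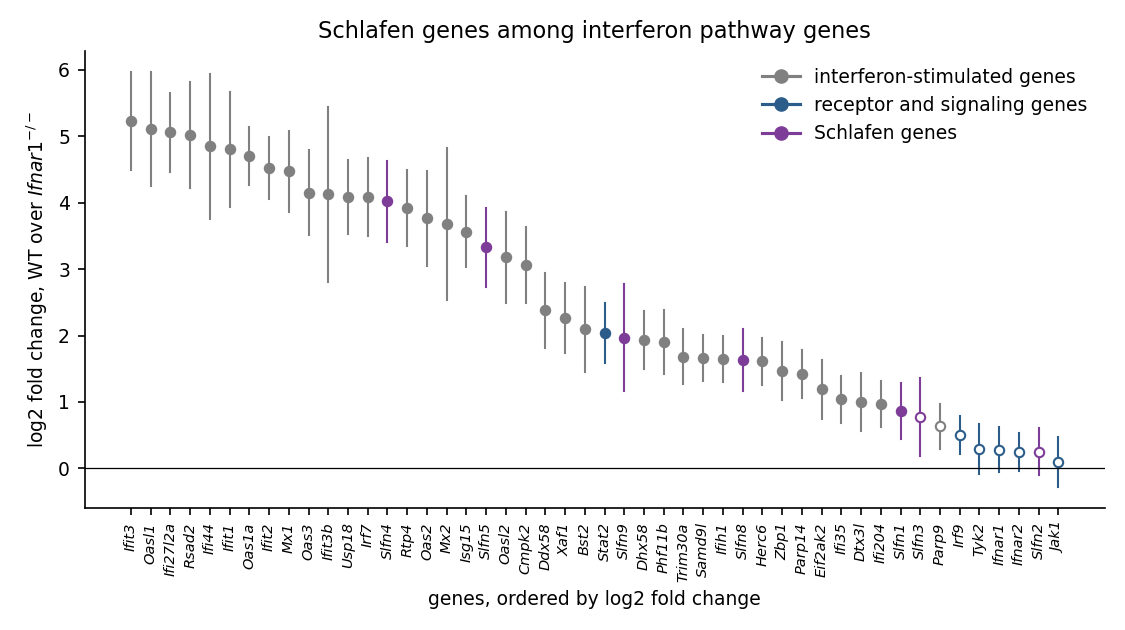
Log2 fold change (WT over Ifnar1-/-) with 95% interval of the Schlafen genes, IFN-stimulated genes, and receptor and signaling genes, ordered by size, with filled circles for called genes and open circles for genes not called. *Slfn4* (4.02) and *Slfn5* (3.32) lie in the upper part of the order, and *Slfn2* (0.25) lies among the receptor and signaling genes that were not called.

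Genes that make, cut, or protect tRNA were examined because Schlafen proteins act on tRNA. Of 6 such genes (*Ang*, *Rnh1*, *Nsun2*, *Trdmt1*, *Elac1*, and *Elac2*), 0 were called by edgeR or DESeq2, with 1 at an unadjusted p under 0.05. Since edgeR called 2.13% of all genes tested in either direction, 0 of 6 is near that share. Their log2 fold changes ran from -0.59 for *Trdmt1*, a tRNA methyltransferase, to 0.30 for *Rnh1*, an inhibitor of ribonucleases, with a median of -0.21.

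The genes whose levels tracked each member most closely over the 6 libraries were found by Pearson's r of log2 normalized CPM, as a description, since all points share the split by genotype. For *Slfn4* they were *Arhgef37* (r = 0.999) and *Cmpk2* (r = 0.998), a nucleotide kinase encoded among IFN-stimulated genes. For *Slfn5* they were *Daxx* (r = 0.999) and *Samd9l* (r = 0.998), and for *Slfn8* they were *Zcchc2* (r = 0.997) and *Zbp1* (r = 0.997), a sensor of Z-form nucleic acids. These 6 genes were themselves called higher in WT. The closest to *Slfn1* (*Plagl2* and *Osbpl8*), *Slfn2* (*Selp* and *Usb1*), *Slfn3* (*Dnajb1* and *Dnttip1*), and *Slfn9* (*Vamp2* and *Fcgr1*) were not called. Between members, r was highest for *Slfn4* with *Slfn5* (0.985) and for *Slfn5* with *Slfn8* (0.979), and lowest for *Slfn3* with *Slfn9* (0.456), the least abundant members.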

How the data were processed

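RNA from 3 WT and 3 Ifnar1-/- libraries of CNS monocytes was analyzed. The authors mapped reads to GRCm38 and deposited, per gene and library, RSEM expected counts (estimated and not normalized), TPM, and FPKM (not used). The submitters' processing notes list RSEM 1.2.31 and STAR 2.6.0c. The labels and the study's methods name different library kits, and the strand setting of the counting is not given in the sources used here. GENCODE M21 named 54165 of 54232 gene identifiers.

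Expected counts were rounded and tested with edgeR 4.0.16 in R 4.3.3 (TMM, filterByExpr with a minimum count of 10, quasi-likelihood test, Benjamini-Hochberg over 11254 genes), without a block, since the sources do not state that same-numbered libraries share a mouse, although 3 recipients carried both genotypes and the groups may share them. The tests were checked on simulated counts. Normalized CPM are counts scaled to TMM-adjusted library sizes. Ratios used log2(TPM + 0.5), which understates changes of low genes. The deposited TPM values come from the authors' RSEM run, which apportions reads that fit several genes. Promoter sequences are RefSeq, and all 7 members had one. A few genes are left unreported here. Members and lists were chosen with earlier results of these data known. Named genes were all members, other Schlafen genes, receptor and signaling genes, the called genes with the 3 largest and 3 smallest fold changes of a list, and the 2 genes most like each member, while others were named after their values were seen. Alternatives were DESeq2 1.42.0, limma 3.58.1 (voom, and log2 TPM), RLE normalization, other filters, removing mitochondrial and ribosomal RNA, no fold-change minimum, length and GC offsets, a replicate block, other pseudocounts, summed similar members, and leaving out each library.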

Additional observations from a re-analysis of the deposited data

How the results depend on the processing

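Of 1247 values recomputed under the alternatives, 1189 were classed as unchanged, 16 reversed, 25 lost and 5 gained a call, and 12 moved otherwise. Fold changes were classed as unchanged when they kept their direction and their side of the threshold. Shares and log2 ratios needed only to keep their direction, so those among the 1189 may differ in size or in overlap. Counts of called genes were allowed a limited change in size, and the 12 that moved were such counts. All 7 members were higher in WT under every alternative, and *Slfn4* (log2 fold change 3.73 to 4.19), *Slfn5* (2.95 to 3.53), and *Slfn8* (1.43 to 1.83) were called under all 18 that apply to single genes. The alternative without a fold-change minimum, which is among the 18, used the main fit and so could not lose a call. The number of genes called was 424 with DESeq2, 872 without a filter on low counts, 125 with limma on log2(TPM + 0.5), and 119 to 245 when a library was left out. Members called numbered 3 to 5 when a library was left out.

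*Slfn1* lost its call with RLE normalization (log2 fold change 0.88, edgeR adjusted p = 0.05004), without mitochondrial and ribosomal RNA genes (0.88, edgeR adjusted p = 0.0520), with limma on log2(TPM + 0.5) (0.87, adjusted p = 0.229), with length and GC offsets (0.91, edgeR adjusted p = 0.0502), and when summed with *Slfn2* (0.44, edgeR adjusted p = 0.209), and it ranged from 0.75 to 1.03 when a library was left out. *Slfn3* summed with *Slfn4* was called at 3.74. *Slfn9* ranged from 1.35 to 2.24 when a library was left out. The causes of these changes were not tested.

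Of the neighbors, 3 were called without a filter, 1 (*Ccl4*) with the replicate block and length and GC offsets, and 0 to 1 when a library was left out (*Gm23444*, without Ifnar1-/- library 2). Directions reversed for values that were small in the main analysis. These were *Ifnar1* (-0.297) and *Jak1* (-0.081) with limma on log2(TPM + 0.5), and *Jak1* with the block and offsets (-0.0038) and when a library was left out (-0.0558 to 0.242). The share of *Slfn1*, 0.640 percentage points in the main analysis, reversed to a larger difference on expected counts (-4.26 percentage points). It also reversed when a library was left out (-0.939 to 2.49), as did the share of *Slfn3* (-0.0922 to 0.0913) and the log2 ratio of *Slfn1* over *Slfn3* (-0.0772 to 0.364). The log2 ratio of *Slfn8* over *Slfn9* reversed with a pseudocount of 1 (0.102) and when a library was left out (-0.349 to 0.197).

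After subtracting group means, libraries of the same number correlated across genes by 0.0872, 0.0265, and 0.289. WT and Ifnar1-/- libraries of different numbers correlated by -0.204 to 0.101. These values do not settle whether same-numbered libraries share a mouse, and the main test used no block because the labels do not state it. With a replicate block, 220 genes and 5 members were called, and *Slfn1* was at 0.87 (edgeR adjusted p = 0.0223). Log2 fold changes correlated across genes with GC content (Spearman's rho = 0.368). The lowest counts among members were those of *Slfn3* (37 to 73 per library) and of *Slfn9* in Ifnar1-/- libraries (50 to 78).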
